A study of Arabidopsis thaliana with 4 samples.

Results

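SWEET proteins are sugar transporters of plant membranes, and the genes described here are those of Arabidopsis thaliana that a probe set of the Affymetrix ATH1 array names alone under the symbol SWEET and a number. The symbols of 14 probe sets had this form, out of 13513 probe sets naming 1 gene, and the 9 whose signal was above the 40th percentile of at least 1 array are described in full. These are SWEET1, SWEET2 and SWEET3 of clade I, SWEET7 of clade II, SWEET11, SWEET13 and SWEET14 of clade III, and SWEET16 and SWEET17 of clade IV. The percentile was taken on each array over the 22746 probe sets that are not array controls. SWEET7 lay nearest inside this limit, at 29.4 against 22.9 on the first LEC1 induced array as deposited, and SWEET4 nearest outside it, at 8.4 against 9.7 on the second control array.

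All samples were whole seedlings (ecotype Columbia) with the pER8-LEC1 transgene, an estradiol-inducible copy of LEAFY COTYLEDON1 (LEC1). LEC1 is a subunit of the NF-Y transcription factor complex and is normally active in the embryo. In the LEC1 induced group, seedlings spent 4 days from germination on plates containing 10 µM estradiol, and in the control group they spent 4 days on plates containing 0.1% DMSO. Both groups grew in continuous white light on a medium that already contained sucrose, and each group has 2 biological replicates, hybridized to 4 arrays in all. The labels do not give the number of transgenic lines or the promoter that drives the estradiol receptor. No array holds seedlings that received estradiol but lacked the transgene, so an effect of estradiol and one of LEC1 cannot be told apart. DMSO is not given for the induced plates, so an effect of DMSO cannot be told apart from these either. The series' title names fatty acid biosynthesis as the study's question, and sugar carriers are described here as the routes by which carbon moves between and within cells.

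SWEET proteins let sugars pass through a membrane down their concentration gradient in either direction, without coupling to protons. Members of clades I and II carry mainly hexoses, members of clade III carry mainly sucrose, and members of clade IV sit in the vacuolar membrane, where SWEET17 is known for moving fructose. In leaves SWEET11 acts with its close relative SWEET12 in releasing sucrose from phloem parenchyma before it is loaded into the phloem, and in seeds SWEET11, SWEET12 and SWEET15 take part in feeding the embryo.

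As deposited, array medians ran from 15.5 to 39.4, so log2 signals were brought to a common distribution by quantile normalization, and all signals below are normalized unless called deposited. A signal under 13.9, the 40th percentile after normalization, is called dim. A fold that rests on dim signals is given as "at least", with each dim array of the lower group set to that limit. The induced gene has no probe set naming it alone and the labels could not be checked against it. The 4 named markers of the maturing embryo, of 8 listed, all rose, with summed signals of 51.9 and 57 in controls and of 19800 and 21110 in LEC1 induced seedlings, and PAP85, a seed storage protein gene, was dim on both control arrays. The 2 named markers of photosynthetic cotyledon cells, of 8 listed (LHCB4.1 and PORB), both fell, with summed signals of 5022 to 5145 in controls and 2020 to 2405 after induction. The 2 named root hair markers, of 8 root markers listed (EXPA7 and EXPA18), had summed signals of 295 and 295.5 in controls and of 69.2 and 137.6 after induction, and neither passed (limma adjusted p = 0.142 and 0.0594). None of the 6 phloem and 6 xylem markers listed is named alone, so the tissues in which several SWEET genes are known to act were not followed. The part of these marker differences in the results below was not tested, and in whole seedlings fewer cells of a type and less RNA per cell cannot be told apart.

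After LEC1 induction SWEET13 of clade III and SWEET17 of clade IV fell, each from signals above the dim limit on both control arrays to signals near or under it. Of the 9 genes, 7 passed the filter for testing, which asks for 2 arrays above the 40th percentile. Of these 7, 2 fell and 0 rose in limma after Benjamini-Hochberg adjustment over 14433 probe sets, where 5.74% were called in either direction, 2.91% lower and 2.83% higher. At an unadjusted limma p under 0.05, 4 of the 7 differed, against 26.5% of all tested probe sets. Both LEC1 induced arrays were under both control arrays for all 7, a pattern that 29% of all tested probe sets showed. As deposited, before normalization, 4 of the 7 showed it, against 11.1%. The median log2 change of the 7 was -1.92, or -1.15 with dim signals set to the limit, against -1e-04 and -0.012 over all tested probe sets. These counts describe the family and are no test of it. SWEET2, SWEET13 and SWEET14, 3 of the 7, entered through the control arrays alone. SWEET16 and SWEET17 each had only 1 induced array above the percentile, so they too passed the filter only with their control arrays.

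**Figure D1:**
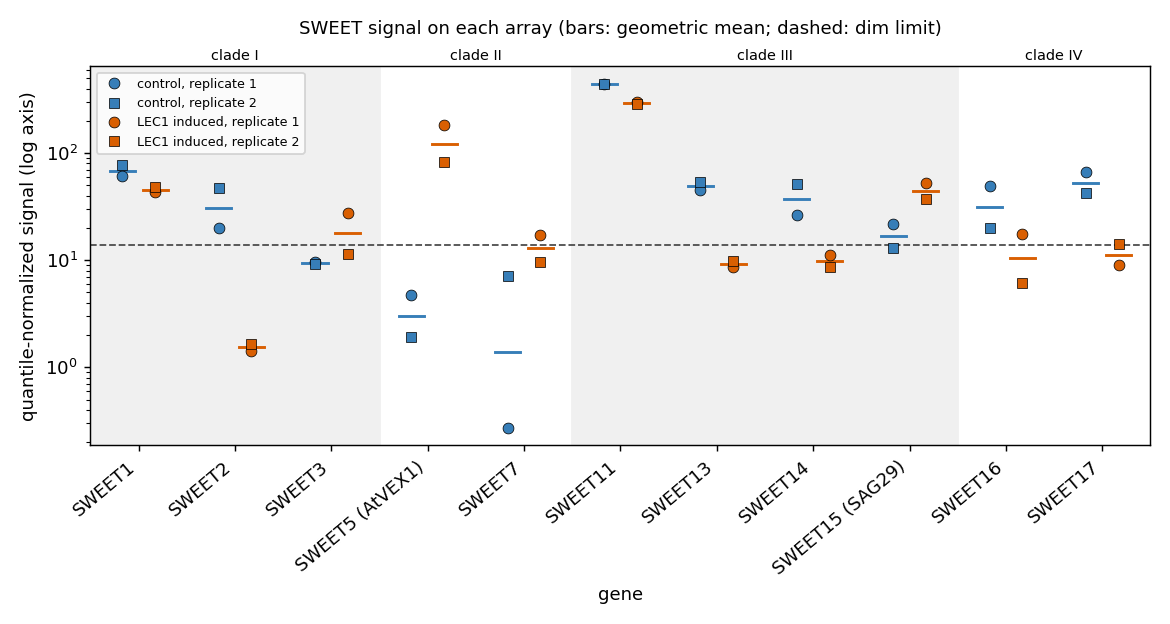
Quantile-normalized signal (log axis) of each SWEET gene with at least 1 array above the 40th percentile, ordered by clade, on the 2 control and 2 LEC1 induced arrays. Bars are geometric means, the dashed line is the dim limit of 13.9, and names in brackets are the symbols under which SWEET5 and SWEET15 are annotated. SWEET13 lies between 44.9 and 53.6 in controls and at 8.68 and 9.77 after induction.

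SWEET13 (AT5G50800), a clade III transporter of sucrose that can also carry gibberellin, had signals of 44.9 and 53.6 on the control arrays and of 8.68 and 9.77 on the LEC1 induced arrays. The groups did not overlap, and both induced arrays were dim. It fell at least 3.53-fold (log2 change -2.41 ± 0.39 SE, 95% interval -3.36 to -1.47, limma adjusted p = 0.0258). Without normalization the groups also stood apart, with deposited signals of 39.6 and 37.1 against 12.9 and 9.8. The call was lost without normalization (limma adjusted p = 0.135), without the filter (0.0521), without control replicate 1 (0.119) and without control replicate 2 (0.145), while over all alternatives the log2 change ran from -2.55 to -1.37.

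SWEET14 (AT4G25010), which like SWEET13 carries sucrose and gibberellin, had signals of 26.7 and 51.5 in controls and of 11.1 and 8.66 after induction. Both induced arrays were dim and lower than both controls, and the control arrays differed from each other by more than those of SWEET13. The log2 change was -1.92 ± 0.50 SE, at least 2.67-fold (limma adjusted p = 0.0754, not passed). The direction was the same under the alternatives that can move the log2 change, those of normalization, an offset added to the signals and single arrays left out. Probe sequences were not used here, so cross-hybridization between these related genes was not checked.

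SWEET11 (AT3G48740), the sucrose exporter of leaf phloem parenchyma, was above the dim limit on every array, with signals of 440.3 and 445.3 in controls and of 298.8 and 287.8 after induction. Its replicates lay close together and the groups did not overlap after normalization. The log2 change of -0.59 ± 0.27 SE did not pass (95% interval -1.26 to 0.07, limma adjusted p = 0.227). As deposited the groups overlapped, at 476.2 and 343.6 in controls against 440.5 and 249 after induction. SWEET12 has no probe set naming it alone and is not analysed here.

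SWEET15 is annotated as SAG29 (AT5G13170), for senescence-associated gene, and so falls outside the symbol rule. Its signals were 21.8 and 13 in controls and 52.1 and 37.2 after induction. Its induced arrays were above both controls, of which the second was dim. The log2 change was 1.39 ± 0.42 SE, at least 2.53-fold, and did not pass (limma adjusted p = 0.103). SWEET9, known for nectar secretion, and SWEET10 were dim on all 4 arrays, at 1.16 to 8.39 and 0.447 to 8.44. SWEET10 (AT5G50790) is the gene next to SWEET13 in the TAIR10.1 gene table, with 0 entries between them.

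In clade IV, SWEET17 (AT4G15920), the fructose carrier of the vacuolar membrane, had signals of 66.8 and 41.9 in controls and of 8.99 and 14.1 after induction. The groups did not overlap, and the second induced array stayed just above the dim limit. It fell at least 3.78-fold (log2 change -2.23 ± 0.44 SE, 95% interval -3.29 to -1.17, limma adjusted p = 0.0408). The deposited signals were 60.6 and 28.8 in controls and 13.4 and 14 after induction. The call was lost without normalization (limma adjusted p = 0.164), without the filter (0.0756), with a variance prior without a trend (0.0622), without control replicate 1 (0.194), without control replicate 2 (0.116) and without LEC1 induced replicate 1 (0.0515), and over all alternatives the log2 change ran from -2.58 to -1.33.

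SWEET16 (AT3G16690), the other vacuolar member, had signals of 49.7 and 20.1 in controls and of 17.4 and 6.18 after induction. The highest induced array nearly reached the lowest control array, and as deposited the groups overlapped. The log2 change of -1.61 ± 0.70 SE did not pass (95% interval -3.29 to 0.08, limma adjusted p = 0.205). The change was -0.96 without control replicate 1 and -2.28 without control replicate 2. Without LEC1 induced replicate 1 it was -2.26, and without LEC1 induced replicate 2 it was -0.87. Its replicates differed more than those of SWEET17, by an SD on the log2 scale of 0.93 in controls and 1.06 after induction (n = 2 each), against 0.47 and 0.46. Between same-numbered arrays the log2 changes were closer, at -1.51 and -1.70 for SWEET16 against -2.89 and -1.57 for SWEET17. The labels do not say what a number shares.

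SWEET13 and SWEET17 were compared for the size of their changes, through the difference of their log2 signals on each array. This difference was -0.57 and 0.35 in controls and -0.05 and -0.53 after induction, so the groups overlapped. The change of SWEET13 was lower than that of SWEET17 by -0.18 on the log2 scale (exact permutation test, two-sided p = 1, where 4 arrays allow no p below 0.333). Leaving out single arrays moved this value from -0.64 to 0.26, so these arrays do not order the pair. The value also rests on dim signals. With dim signals set to the limit, the folds run in the opposite order (3.53 for SWEET13 and 3.78 for SWEET17).

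**Figure D2:**
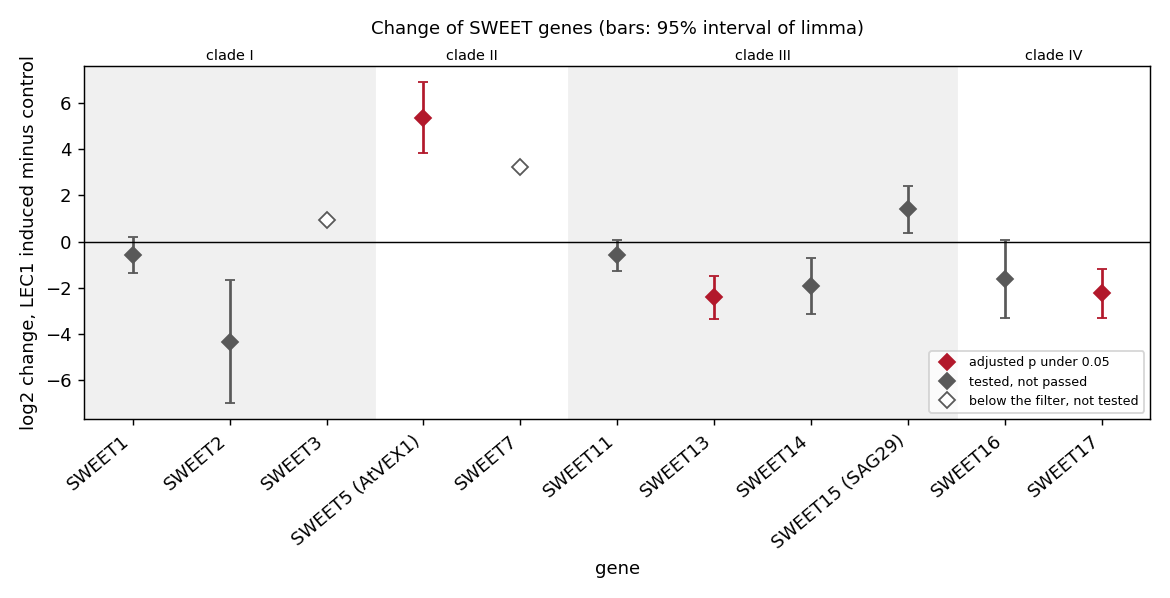
Log2 change (LEC1 induced minus control) of each SWEET gene with at least 1 array above the 40th percentile, by clade. Diamonds are differences of the group means over 2 arrays each and bars the 95% interval of limma, with red for adjusted p under 0.05 and open symbols for genes below the filter. SWEET13 and SWEET17 lie at -2.41 and -2.23, and SWEET5, annotated as AtVEX1, at 5.35.

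In clade I, SWEET1 (AT1G21460), a glucose transporter of the plasma membrane, was above the dim limit on every array, at 60.4 and 76.6 in controls and 43.4 and 47.7 after induction. The log2 change of -0.58 ± 0.31 SE did not pass (limma adjusted p = 0.288). Its direction depended on scaling, since without normalization, where the median log2 change of all tested probe sets was 0.62, the change was 0.11.

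SWEET2 (AT3G14770), a vacuolar glucose carrier known from roots, had signals of 19.9 and 47.6 in controls and of 1.41 and 1.66 after induction. Both induced arrays were far under the dim limit, and the control arrays differed from each other by an SD of 0.89 on the log2 scale (n = 2). The fitted log2 change was -4.33 ± 1.10 SE and did not pass (95% interval -6.99 to -1.66, limma adjusted p = 0.0729), and with dim signals set to the limit the difference was at least 2.21-fold. It passed with an offset of 16 added to the signals, which damps dim values (-1.46, limma adjusted p = 0.0402), and with a variance prior without a trend (0.0286), with either LEC1 induced array left out (0.0363 without replicate 1 and 0.0333 without replicate 2). Over the 12 alternatives that tested it, the limma adjusted p ran from 0.0286 to 0.361.

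SWEET3 (AT5G53190) exceeded the percentile only on the first induced array, at 27.6, against 11.5 on the second and 9.65 and 9.17 in controls. It was below the filter, and without the filter its log2 change of 0.92 did not pass (limma adjusted p = 0.519). With the first LEC1 induced array left out the change was 0.26, and with the second left out 1.57.

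In clade II, SWEET7 (AT4G10850) likewise exceeded the percentile only on the first induced array, with signals of 0.271 and 7.17 in controls and of 17.3 and 9.7 after induction. All arrays but that first one were dim, and without the filter the log2 change of 3.22 did not pass (limma adjusted p = 0.337). It was 0.87 without control replicate 1 and 5.60 without control replicate 2. SWEET4, SWEET6 and SWEET8 were dim on all 4 arrays, at 1.75 to 11.9, 0.473 to 11.7 and 0.447 to 5.26. SWEET8 is known for its role in pollen wall formation.

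The remaining clade II gene, SWEET5 (AT5G62850), is annotated as AtVEX1, for vegetative cell expressed, a name from the pollen grain, and so also falls outside the symbol rule. Its signals were 4.75 and 1.91 on the control arrays, both dim, and 184 and 81.7 on the LEC1 induced arrays. It rose at least 8.83-fold (log2 change 5.35 ± 0.64 SE, 95% interval 3.81 to 6.88, limma adjusted p = 0.0117). As deposited its signals were 4.3 and 1.4 against 281.5 and 75.7, and it passed under 12 of 13 alternatives, the exception being the methods' t-test (false discovery rate of 0.25). Of the 17 family genes 16 were named on the array and 9 of these tested, and 1 rose and 2 fell, where 2.83% of all tested probe sets rose and 2.91% fell. SWEET5 entered the test through the induced arrays alone and SWEET13 through the control arrays alone. SWEET17 passed the filter only with its control arrays, so nothing is read from this count.

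Few other genes of sugar transport and sucrose metabolism were named alone by a probe set, and no change among them passed. In the annotation used, 8730 probe sets that are not array controls name no gene, so a gene not named here may still have a probe set. Of 67 genes in 6 lists, 17 were named alone on the array and 11 were tested, and 0 rose and 0 fell in limma, against 5.74% of all tested probe sets. The methods' t-test called 0 of the 11 at a false discovery rate of 0.05 and 0 at 0.2. Among all 14433 tested probe sets it called only 2 and 396, so this 0 does not show that these genes were unchanged. At an unadjusted limma p under 0.05, 6 were lower and 1 was higher (7 of 11, against 26.5%). Their median log2 change was -0.90. None of the 9 proton-coupled sucrose carriers listed is named alone. Of the 14 hexose carriers 1 was tested, AT5G61520, with signals of 37.5 and 32.6 in controls and 8.28 and 11.4 after induction (limma adjusted p = 0.0635). Of the 14 carriers of the vacuole and plastid 7 were tested, among them TMT1, a tonoplast monosaccharide transporter, which had 250.7 and 354.5 in controls and 160.8 and 402.1 after induction (limma adjusted p = 0.792). The groups overlapped for TMT1. The other members of this list are named after their values were seen. For TMT2 the groups also overlapped (log2 change 0.24 ± 0.32 SE, limma adjusted p = 0.654). For AT5G17010, AT5G59250, AT1G19450 and SFP1 both induced arrays were under both controls, a pattern that 29% of all tested probe sets showed. None of them passed, with log2 changes of -1.44, -1.70, -1.53 and -0.90 (limma adjusted p = 0.0526, 0.0757, 0.0651 and 0.136).

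The last member of this list, SFP2, a gene of the sugar porter family, had signals of 1.44 and 12.4 in controls and of 82.6 and 67.9 after induction (log2 change 4.15 ± 0.97 SE, at least 5.39-fold, limma adjusted p = 0.0615). The tested gene of sucrose cleavage, AT1G62660, had overlapping groups, at 322.5 and 419.3 against 332.8 and 354.5 (limma adjusted p = 0.857). The tested gene of sucrose synthesis, ATSPS4F, a sucrose phosphate synthase, had 36.8 and 73.8 in controls and 5.8 and 15.3 after induction and did not pass (limma adjusted p = 0.0677). The tested polyol carrier, AT2G20780, had 107.7 and 97.6 against 49.5 and 72.1 (limma adjusted p = 0.204).

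**Figure D3:**
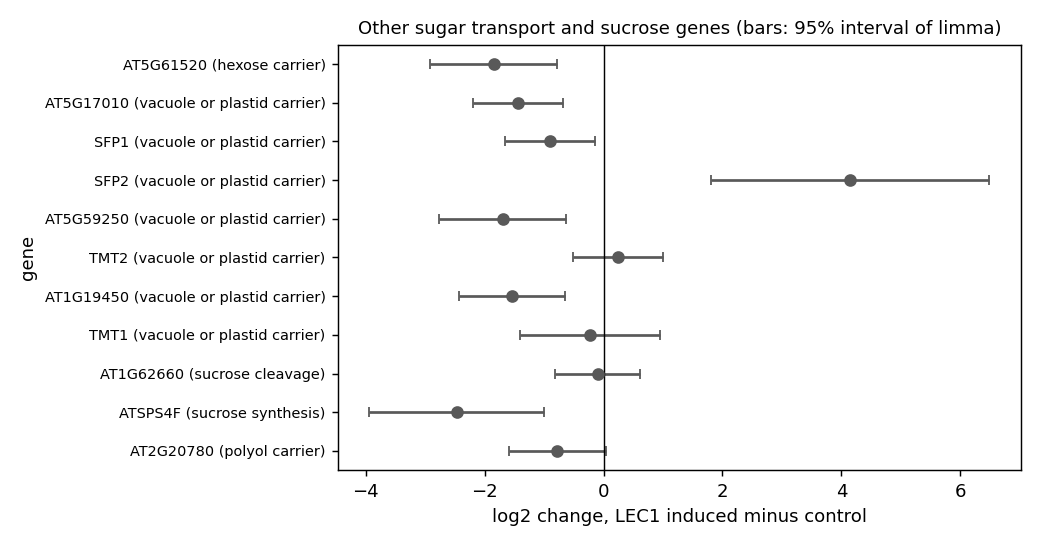
Log2 change (LEC1 induced minus control) of the 11 tested genes from the lists of sugar carriers and sucrose enzymes, with the 95% interval of limma as bars, over 2 arrays a group. None passed an adjusted p of 0.05. SFP2 lies at 4.15 and ATSPS4F at -2.47.

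Other genes with nearly the same profile were sought by the root mean square difference of log2 signals, centred on each gene's mean, over the 4 arrays. With 4 arrays and 7721 or 7722 candidates, near profiles are easily found for most genes, so the nearest genes are a description only. For SWEET13 they were AT3G47650, AT2G41950 and BCAT4, an aminotransferase of methionine chain elongation, at 0.045 to 0.114 log2 units. For SWEET17 they were AT2G33180, AT3G59340 and AT3G25660, at 0.059 to 0.086, and for SWEET16 psbL, OPCL1 and rps18, at 0.069 to 0.102. For SWEET14 they were AT1G68570, AT3G48420 and ycf4 (0.131 to 0.140), and for SWEET11 AT3G49210, AT4G10320 and AT4G31530 (0.018 to 0.023). In clade I, SWEET1 was nearest to AT2G43945, AT4G02220 and AT5G16380 (0.023 to 0.025), SWEET3 to APG8A, VPS2.1 and ARD4 (0.04 to 0.079), and SWEET2, with a much looser fit, to rbcL, AT4G03870 and AT5G59680 (0.431 to 0.561). SWEET7 of clade II was nearest to NAC014, AT2G43250 and AT5G38180 (0.075 to 0.258).

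**Figure D4:**
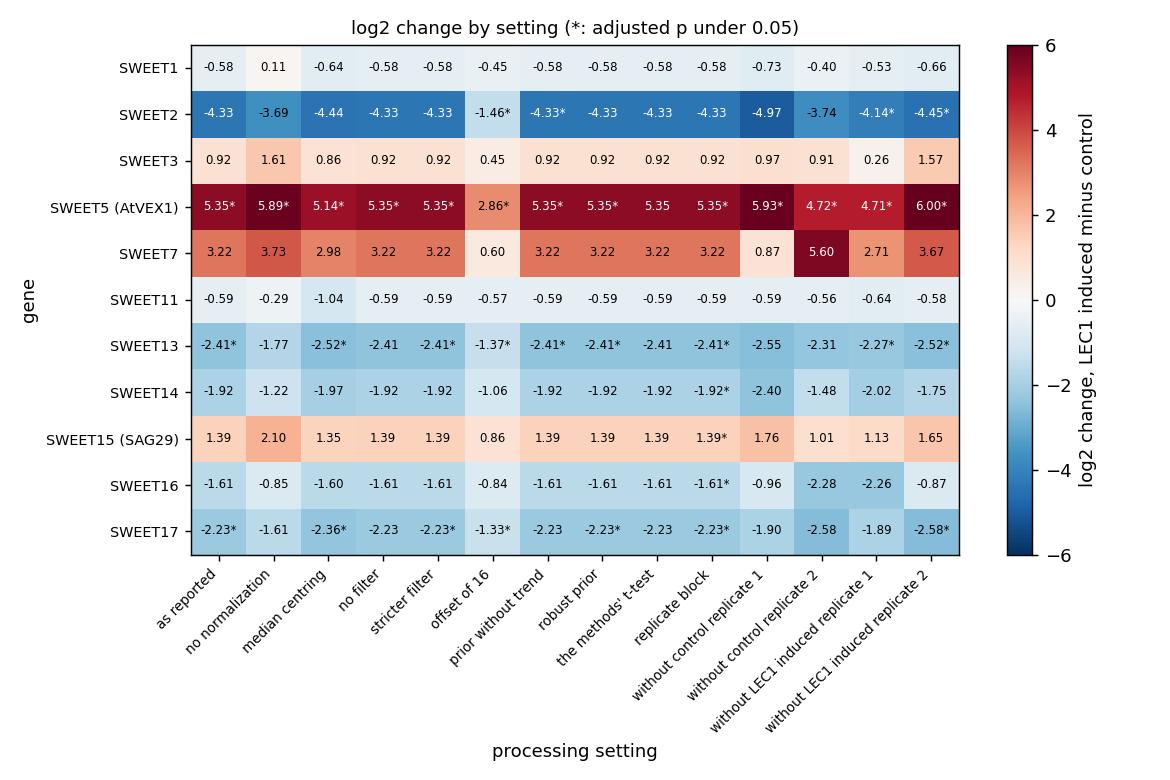
Log2 change (LEC1 induced minus control, colour scale and printed values) of 11 SWEET genes as reported and under 13 alternative settings, with a star where the adjusted p was under 0.05. SWEET13 and SWEET17 stay negative in every column, and SWEET1 turns to 0.11 without normalization.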

How the data were processed

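The deposited table gives each probe set a linear intensity on each of 4 arrays, made by the authors with MAS5, per the submitters' processing notes. RNA was amplified in a two-cycle protocol, per the labels' protocols. Its scaling, detection calls and genome build are not stated in those sources. Array controls (64) were left out, values under 0.1 (8 values) were set to 0.1, and log2 values were quantile normalized. The test was that of limma 3.58.1 (R 4.3.3; lmFit, eBayes with trend, two-sided, Benjamini-Hochberg over 14433 kept probe sets, threshold 0.05), tested on simulated data. With 2 arrays a group, their number limits the precision. The design text names a two-sided t-test with a false discovery rate under 0.2, which was run as an alternative. Symbols came from the platform annotation, updated through the TAIR10.1 gene table (13436 of 13513 matched). No coordinates are given, and promoters were not analysed here. SWEET5 and SWEET15 were matched through their locus names. The rule for named genes took every SWEET gene above the percentile, called members of each list or else its brightest, and the 3 nearest profiles per gene. The members and lists were chosen with earlier results of these data known.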

Additional observations from a re-analysis of the deposited data

How the results depend on the processing

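For 11 SWEET genes, 13 alternatives were run. Those of the filter, the variance prior, the methods' t-test and the replicate block leave the log2 change as it is, so they cannot move its direction. Among the others (normalization, offset and single arrays left out), the direction stayed the same except for SWEET1, which turned to 0.11 without normalization. Among the alternatives that keep all 4 arrays, SWEET13 no longer passed without normalization (-1.77) or without the filter (-2.41, limma adjusted p = 0.0521). Nor did it pass in the methods' t-test (-2.41, false discovery rate of 0.196, under the study's own limit of 0.2). Single arrays left out gave -2.55 to -2.27, and the call was also lost with either control left out. Among the same alternatives, SWEET17 no longer passed without normalization (-1.61). At an unchanged -2.23 it also did not pass without the filter, without a trend in the prior (limma adjusted p = 0.0622) and in the methods' t-test (false discovery rate of 0.276). Single arrays left out gave -2.58 to -1.89, and its call was also lost with either control or LEC1 induced replicate 1 left out. SWEET11 was under the study's limit in the methods' t-test (0.19). The difference between SWEET13 and SWEET17 ran from -0.64 to 0.26 with single arrays left out.

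Of all tested probe sets 828 were called, 408 higher and 420 lower. Without normalization the calls were 494 higher and 97 lower (median log2 change of all tested probe sets 0.62). Median centring gave 1409 calls, 447 higher and 962 lower (median -0.14). A prior without a trend gave 381, and the methods' t-test 2 at 0.05 and 396 at 0.2. Without control replicate 1 there were 163 calls (150 higher, 13 lower), without control replicate 2 147 (141 higher, 6 lower), and without LEC1 induced replicate 2 1803 (700 higher, 1103 lower), so the share of lower calls among all probe sets depended on having both controls. With the replicate block there were 2583 calls among all 14433 tested probe sets, 1178 higher and 1405 lower. With it 5 of the 11 other sugar genes were called lower and 1 higher, and SWEET14, SWEET15 and SWEET16 also passed, at limma adjusted p = 0.0378, 0.0321 and 0.0459. Same-numbered arrays deviated together (correlation 0.311 across probe sets), but the labels do not say what a number shares. Signals under the dim limit leave uncertain the size of the changes of SWEET2, SWEET3, SWEET5, SWEET7, SWEET13, SWEET14, SWEET15, SWEET16 and SWEET17. The cause of the changes between settings was not tested.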
